A study of Caenorhabditis elegans with 6 samples.

Results

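The genes described here encode the Argonautes of Caenorhabditis elegans and the proteins that make, amplify, carry and move small RNAs. They were chosen by symbol and gene type alone: protein-coding rows of the deposited table named wago, ppw, csr, hrde, ergo, alg, rde, sago, nrde, prg, dcr, drh, rrf, mut, eri or sid with a number, which gave 52 of 45519 genes. Gene expression was measured by RNA sequencing of whole larvae that had hatched without food in M9 buffer and stopped at the first larval stage (L1 arrest), after 3 days at 20 °C. Wild-type N2 (3 libraries) was compared with a strain carrying the aqz 3 allele of linc-133, which gives a long noncoding RNA (3 libraries). Neither strain is labelled as carrying a further allele, transgene or drug, and the lesion in linc-133 and the number of lines used are not labelled. The messenger RNAs of these genes were measured, not the small RNAs or the proteins.

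Argonautes are proteins that hold a short guide RNA and act on transcripts that pair with it. In worms a primary Argonaute is loaded with a microRNA, a piRNA or a small interfering RNA cut by Dicer from double-stranded RNA. Where the guide is a piRNA or a small interfering RNA, RNA-dependent RNA polymerases can then copy the target into many secondary small RNAs. These load a worm-specific set of secondary Argonautes. Some secondary Argonautes act in the cytoplasm, some in the nucleus, some in the germ line and some in the soma. Double-stranded RNA also moves between worm cells, which is what lets a feeding or injection treatment silence genes throughout the animal.

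Levels are in FPKM, fragments per kilobase of gene and per fixed number of reads, so that levels can be compared between genes. The deposited values also carry a scaling between libraries: the read total they imply was 1.12 times the recovered total in mutant replicate 1, 1.002 times in mutant replicate 2 and 0.900 times in mutant replicate 3, against 0.992 to 1.03 times in N2. Relative to the recovered reads, this raised mutant replicate 3 and lowered mutant replicate 1. Recovered reads on genes came to between 16108063 and 18556695 per library. linc-133 itself lay close to the detection limit, with 9, 6 and 5 reads in replicates 1, 2 and 3 of N2 and 6, 2 and 2 in those of the mutant. Its level was 0.110 ± 0.0283 FPKM in N2 and 0.0546 ± 0.0288 FPKM in the mutant (mean ± SD, n = 3 each; 2-sided exact permutation p = 0.1, and no smaller p can be had from 3 against 3). Marker genes of the larval body were present in every library, among them the muscle myosin gene unc-54, the pharyngeal myosin gene myo-2, the gut regulator gene elt-2 and the synaptic vesicle gene snb-1. The summed level of 9 sperm markers was at most 5.88 FPKM in any library, with spe-11, spe-38, msp-3 and msp-10 listed at 0 throughout, and that of 6 yolk protein genes was at most 1.99 FPKM. By contrast, 10 early embryo markers summed to 277 to 401 FPKM in N2 and 331 to 359 FPKM in the mutant, with pos-1 alone at 80.9 to 153 FPKM. The list was not high throughout: nearly all of the sum came from pos-1, mex-1, mex-3, mex-5, mex-6 and skn-1. The markers med-1, med-2, end-1 and end-3 reached at most 0.366, 3.12, 3.64 and 1.29 FPKM in any library. The part of the early embryo markers in the levels of the genes described here was not tested.

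The level of these genes in arrested larvae was described first. Of the 52, 48 reached the mean of 1 FPKM over the 6 libraries that was required for testing. Their means ran from 1.74 FPKM for eri-5 to 145 FPKM for eri-12, with a median of 15.02 FPKM, against a median of 13.7 FPKM over the 13868 protein-coding genes tested. Reads per library behind a tested member averaged from 56.8 for eri-5 to 5702 for eri-12, and 36 members averaged over 400 reads. The 4 that were not tested were all Argonaute genes. wago-10 had 19, 22 and 32 reads in wild type and 29, 9 and 22 in the mutant. wago-5 had 0 to 8 reads in any library. alg-3 and alg-4, a pair of Argonautes known for their part in sperm formation, had 0 to 4 reads in any library. In bulk samples such as these, fewer cells of a type and less RNA per cell cannot be told apart.

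**Figure D1:**
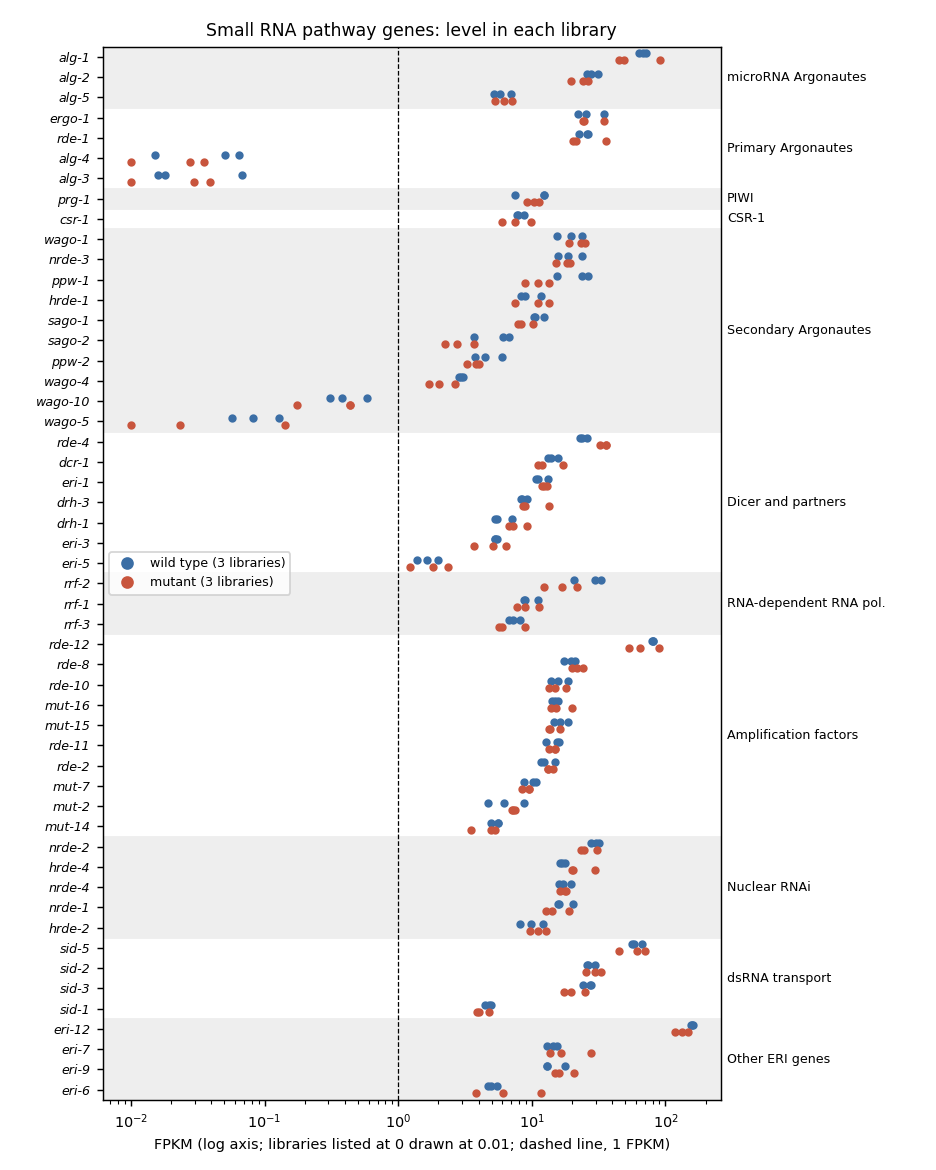
FPKM (log axis) of all 52 genes, grouped by role, in each of 3 wild-type (blue) and 3 mutant (red) libraries, with values listed at 0 drawn at 0.01. Most genes lie between 1 and 100 FPKM in both strains, while alg-3, alg-4, wago-5 and wago-10 lie left of the dashed line at 1 FPKM.

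The comparison of the strains asked which of these genes differed in the linc-133 mutant. The test was limma's moderated linear model on log2(FPKM + 1), with p-values adjusted by the Benjamini-Hochberg method over all 16794 genes tested. Differences given below are mutant minus wild type on that scale, which understates the change of weakly expressed genes. None of the 48 tested members passed an adjusted p of 0.05 (background 0.0% of all genes tested), and the lowest adjusted p in limma was 0.180, for the RNA-binding Dicer partner gene rde-4. An unadjusted p under 0.05 was found for 5 members (10.4%), 2 higher in the mutant (rde-4 and hrde-4) and 3 lower (ppw-1, sago-2 and rrf-2). The background was 13.7% of all genes tested, 7.22% higher and 6.48% lower. N2 and mutant libraries were fully apart in 6 members (12.5%), 2 higher and 4 lower in the mutant, against 20.0% of all genes tested, 10.5% higher and 9.54% lower. Per recovered read total, without the scaling between libraries, they were apart in 11 members (22.9%), 2 higher and 9 lower, against 18.4% of all genes tested and 9.07% lower. The members that joined were nrde-2, rrf-2, sago-2, sid-1 and sid-3. The share with an unadjusted p under 0.05 was below the background, and the share of separated members was below it in the deposited FPKM and above it without their scaling. The median difference of the members was -0.046, against -0.0015 over all genes tested, with 20 members positive and 28 negative. In 44 members the 95% interval of the difference lay within 1 on the log2 scale in either direction, so that these intervals leave out a change of 1 log2 unit. The 4 others were ppw-1, sago-2, rrf-2 and eri-6.

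**Figure D2:**
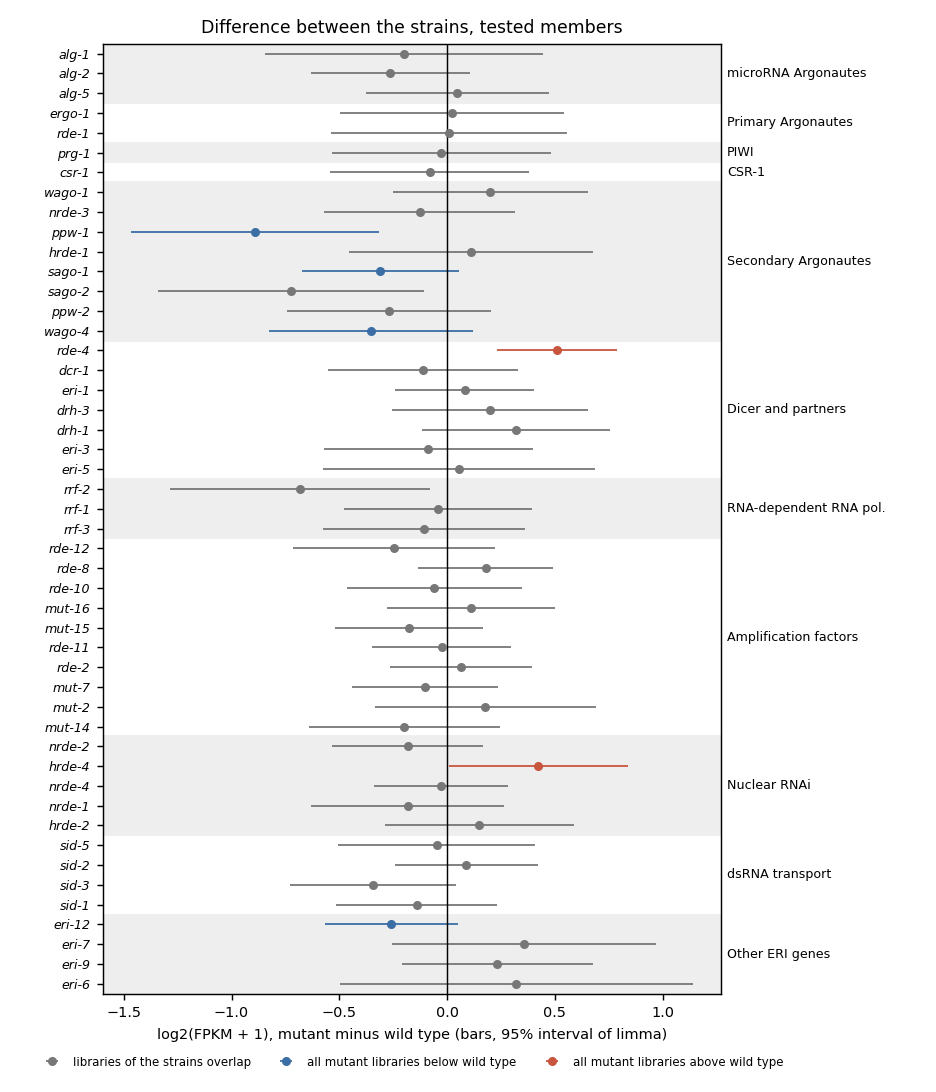
Difference in log2(FPKM + 1), mutant minus wild type, of the 48 tested genes by role, with 95% intervals of limma. The intervals of ppw-1, sago-2 and rrf-2 lie below 0 and those of rde-4 and hrde-4 above 0 before adjustment, and most others span 0.

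The secondary Argonautes held the 2 members with the largest negative differences, ppw-1 and sago-2. Of 10 in the table, 8 were tested, 6 with a negative and 2 with a positive difference (median -0.29), and 0 passed over all genes. ppw-1 (chromosome I, 4182843 to 4189935, plus strand of WBcel235) encodes an Argonaute needed for RNA interference in the germ line. Replicates 1, 2 and 3 measured 15.3, 23.8 and 26.5 FPKM in N2 and 11.2, 8.95 and 13.4 FPKM in the mutant, the order kept for all genes below. All 3 mutant libraries lay below all 3 wild-type libraries, although wild-type replicate 1 was nearer to the mutant than to the other wild-type libraries. The means were 21.9 ± 5.86 and 11.2 ± 2.21 FPKM (SD, n = 3 each), 1.96-fold higher in wild type. The log2 difference of -0.89 ± 0.24 (SE; 95% interval -1.47 to -0.32) had an unadjusted p of 0.00828 and an adjusted p of 0.224 in limma. ppw-1 was the only member past the threshold in any of the 18 alternatives run: limma's voom on recovered reads with a quality weight per library gave -1.15 with an adjusted p of 0.0350. The adjusted p over the fits ran from 0.0350 to 0.580, and 1.99% of 15365 genes passed in that alternative.

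sago-2 (chromosome I, 618160 to 621490, plus strand) encodes a secondary Argonaute closely related in sequence to PPW-1, so that reads common to both could be split between the pair, and the authors' treatment of such reads is not given in the sources used here. sago-2 measured 3.66, 6.10 and 6.76 FPKM in the wild-type libraries and 2.75, 2.25 and 3.68 FPKM in the mutant libraries. Mutant replicate 3 just reached the level of wild-type replicate 1, so the groups overlapped in the deposited FPKM, though not without their scaling between libraries. The log2 difference was -0.72 ± 0.26 (SE; adjusted p = 0.306 in limma), and ran from -0.40 with a pseudocount of 5 to -1.13 in voom with quality weights, with adjusted p-values over the fits from 0.0712 to 0.689. In both genes wild-type replicates 2 and 3 were the highest of the 6 libraries and mutant replicate 2 the lowest.

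The other secondary Argonautes differed less. sago-1, named together with sago-2 for a shared part in carrying secondary small RNAs, measured 12.3, 10.4 and 10.6 FPKM in N2 and 8.31, 7.85 and 10.2 FPKM in the mutant. wago-4, a germline Argonaute needed for inheritance of silencing, measured 2.97, 2.86 and 3.03 FPKM in N2 and 2.02, 1.69 and 2.65 FPKM in the mutant. In both the mutant libraries lay below the wild-type libraries, by log2 differences of -0.31 ± 0.15 and -0.35 ± 0.20 (SE), with adjusted p-values of 0.424 and 0.481 in limma. ppw-2, another germline Argonaute, measured 4.71 ± 1.12 FPKM in N2 and 3.69 ± 0.394 FPKM in the mutant, with overlapping libraries.

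The nuclear Argonautes are nrde-3, which carries small RNAs into nuclei of the soma, and hrde-1, which does so in the germ line. nrde-3 measured 23.9, 18.6 and 15.7 FPKM in N2 and 18.4, 15.1 and 19.1 FPKM in the mutant. hrde-1 measured 8.93, 8.28 and 11.7 FPKM in N2 and 7.42, 11.1 and 13.4 FPKM in the mutant. wago-1, a germline P granule Argonaute, measured 23.7, 15.5 and 19.5 FPKM in N2 and 19.03, 24.9 and 23.5 FPKM in the mutant. In these 3 genes the strains overlapped, and the differences were -0.13, 0.11 and 0.20 in that order.

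A single further gene of the table, C04F12.1 (chromosome I, 9673664 to 9678557, minus strand), is annotated in its description with a Piwi domain, the fold that marks Argonautes, but falls outside the symbols used. It was looked up for that annotation after the table had been read. It measured 13.4, 21.7 and 23.5 FPKM in N2 and 8.77, 7.46 and 10.3 FPKM in the mutant. Every mutant library lay below every wild-type library, and the 6 libraries had the same order of deposited FPKM from low to high as for ppw-1, an order seen in 68 (0.405%) of all genes tested. Its means were 19.5 ± 5.35 and 8.83 ± 1.40 FPKM (SD, n = 3 each), a log2 difference of -1.03 ± 0.23 (SE; adjusted p = 0.180 in limma).

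**Figure D3:**
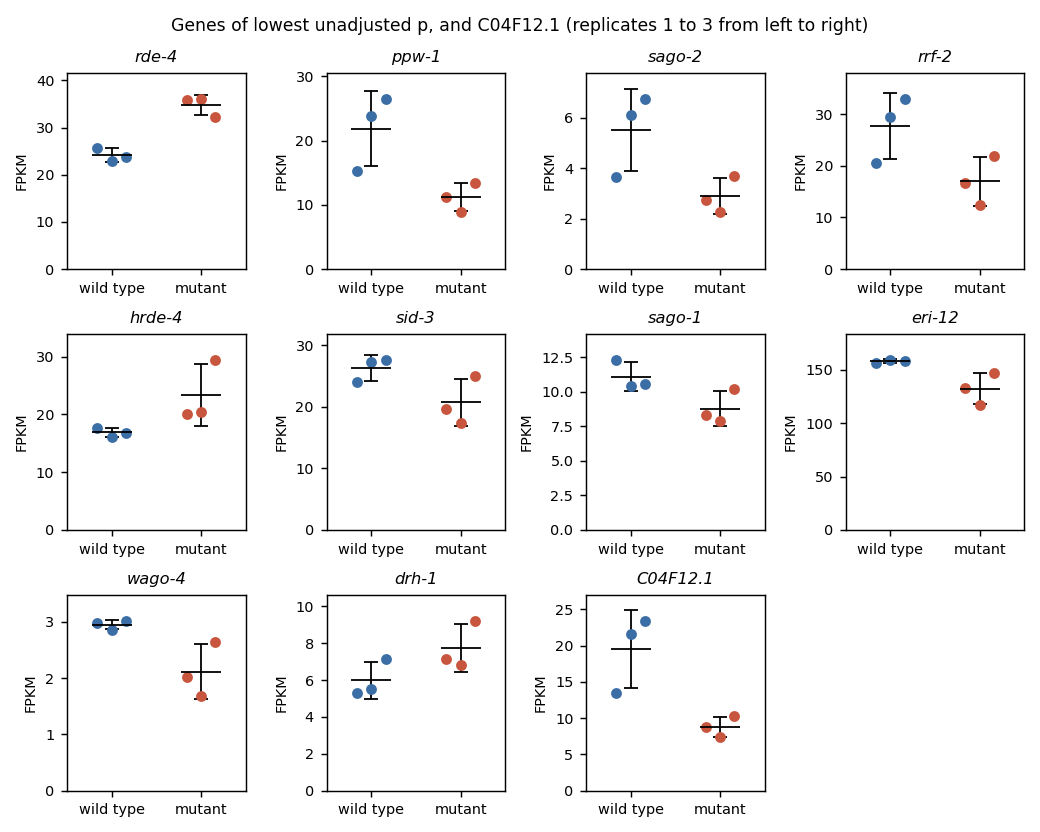
FPKM of the 10 members with the lowest unadjusted p and of C04F12.1 in each library (points, replicates 1 to 3 from left to right), with the mean and SD of each strain (black, n = 3). The strains separate in rde-4, ppw-1, hrde-4, sago-1, eri-12, wago-4 and C04F12.1, and overlap in sago-2, rrf-2 and sid-3, which separate without the scaling between libraries. In drh-1 the lowest mutant library lies below the highest wild-type library.

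The microRNA Argonautes are alg-1 and alg-2, which act throughout the body, and alg-5, which is found in the germ line. alg-1 had the highest level of all Argonautes, with 67.6, 71.2 and 63.2 FPKM in N2 and 45.1, 48.5 and 91.1 FPKM in the mutant. Mutant replicates 1 and 2 lay below and mutant replicate 3 above the wild-type range, so the mean difference of -0.20 ± 0.27 (SE) averaged libraries on either side of the wild-type range. Leaving out a single mutant library moved it to -0.51 (replicate 3), -0.067 (replicate 2) or -0.015 (replicate 1). alg-2 measured 31.1, 27.5 and 25.8 FPKM in N2 and 26.4, 19.5 and 24.3 FPKM in the mutant, a log2 difference of -0.26 ± 0.15 (SE). alg-5 measured 5.96 ± 0.935 FPKM in N2 and 6.19 ± 0.931 FPKM in the mutant (mean ± SD, n = 3 each).

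Among the primary Argonautes of small interfering RNAs, rde-1, which starts the response to foreign double-stranded RNA, measured 25.7, 26.4 and 22.5 FPKM in N2 and 20.3, 21.2 and 35.9 FPKM in the mutant. ergo-1, which acts on endogenous targets in oocytes and embryos, measured 34.6, 25.4 and 22.3 FPKM in N2 and 24.4, 24.3 and 34.9 FPKM in the mutant. Mutant replicate 3 was the highest of the 6 libraries in both genes, for ergo-1 not so without the scaling between libraries, and the differences of 0.0079 and 0.025 had intervals from -0.54 to 0.56 and from -0.49 to 0.54. The piRNA-binding prg-1 measured 10.7 ± 2.77 and 10.3 ± 1.06 FPKM, N2 first. csr-1, an Argonaute that binds small RNAs against germline-expressed genes, measured 8.10 ± 0.610 and 7.73 ± 1.94 FPKM. The csr-1 exons share 438 bases, 11.9% of their length, with frpr-10 on the same strand, and reads there could come from either.

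Germline markers were compared beside the germline Argonautes, since L1 larvae hold only a few primordial germ cells. Of 14 germline markers, 0 had an unadjusted p under 0.05 in limma, against 13.7% of all genes tested, and their median log2 difference was 0.050. Their summed level ran from 166 to 258 FPKM in the wild-type libraries and from 226 to 270.2 FPKM in the mutant libraries. Their part in the values of ppw-1, ppw-2, wago-1 and wago-4 was not tested.

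Of Dicer and its partners, all 7 were tested, 5 with a positive and 2 with a negative difference. rde-4 (chromosome III, 10217302 to 10218646, minus strand) encodes the double-stranded RNA-binding protein that brings long double-stranded RNA to Dicer. It measured 25.7, 22.9 and 23.7 FPKM in N2 and 35.9, 36.1 and 32.3 FPKM in the mutant. In the deposited FPKM the mutant libraries lay above the wild-type libraries with a clear gap, and the spread within each strain was small. The means were 24.1 ± 1.46 and 34.8 ± 2.13 FPKM (SD, n = 3 each), 1.44-fold higher in the mutant. The log2 difference of 0.51 ± 0.12 (SE; 95% interval 0.23 to 0.79) had an unadjusted p of 0.00368 and an adjusted p of 0.180 in limma. Over the alternatives it stayed between 0.45 and 0.58, with adjusted p-values from 0.0597 to 0.541. Without the scaling between libraries, rde-4 measured 26.5, 22.7 and 24.2 in N2 and 40.1, 36.2 and 29.1 in the mutant. The strains stayed apart there, with a wider spread in the mutant (adjusted p = 0.306 in limma).

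Dicer itself, dcr-1, measured 15.7, 13.8 and 13.3 FPKM in N2 and 11.8, 11.1 and 17.02 FPKM in the mutant, with overlapping libraries. drh-1, a RIG-I-like helicase known in antiviral defence, measured 5.29, 5.50 and 7.16 FPKM in N2 and 7.16, 6.79 and 9.23 FPKM in the mutant. Its difference of 0.32 ± 0.18 (SE) had an adjusted p of 0.487 in limma, and the strains overlapped. It was 0.20 without mutant replicate 3 and 0.21 with a pseudocount of 5. The related helicase gene drh-3, which works with the RNA-dependent RNA polymerases, measured 8.645 ± 0.488 and 10.3 ± 2.68 FPKM. The partners of the ERI complex, a Dicer complex for endogenous small RNAs, were close between the strains: the differences of the exonuclease gene eri-1, of eri-3 and of the Tudor domain gene eri-5 were 0.081, -0.087 and 0.055.

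Of the 3 RNA-dependent RNA polymerase genes, all had a negative difference. rrf-2 (chromosome I, 12098671 to 12106407, minus strand) measured 20.6, 29.5 and 33.0 FPKM in N2 and 16.7, 12.4 and 21.8 FPKM in the mutant. Mutant replicate 3 lay above wild-type replicate 1, so the groups overlapped, though not without the scaling between libraries. The means were 27.7 ± 6.39 and 16.96 ± 4.73 FPKM (SD, n = 3 each), and the log2 difference of -0.68 ± 0.25 (SE) had an unadjusted p of 0.0321 and an adjusted p of 0.320 in limma. rrf-2 and sago-2 had the same order of the 6 libraries in the deposited FPKM, which was seen in 51 (0.304%) of all genes tested, sid-3 among them. Members with smaller differences shared an order too, among them sid-5 with sid-2, alg-1 with rde-1, and rde-12 with dcr-1. rrf-1, which makes secondary small RNAs in the soma, measured 9.58 ± 1.34 and 9.32 ± 1.85 FPKM, and rrf-3, which makes endogenous primary small interfering RNAs, measured 7.36 ± 0.681 and 6.88 ± 1.80 FPKM. rrf-3 is the member nearest to linc-133, 321 kb away on chromosome II.

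The mutator and amplification factors were tested in all 10 members, and none had an unadjusted p under 0.05 in limma or separated the strains, with or without the scaling between libraries. Over all genes tested, 13.7% had such a p, and 20.0% separated the strains with and 18.4% without that scaling. Shares of this size leave few genes to be found among 10. Their differences had a median of -0.042. rde-12, a DEAD-box helicase that binds targeted messenger RNAs, had the highest level of the group, at 81.3, 80.1 and 78.8 FPKM in N2 and 64.5, 53.2 and 88.9 FPKM in the mutant. Mutant replicates 1 and 2 lay below and mutant replicate 3 above the wild-type range, although mutant replicate 3 lay inside it without the scaling between libraries. The difference of -0.25 was -0.080 without mutant replicate 2 and -0.45 without mutant replicate 3. mut-16, which scaffolds the perinuclear Mutator foci, measured 14.9 ± 0.869 FPKM in N2 and 16.4 ± 3.25 FPKM in the mutant. The exonuclease gene mut-7 measured 9.91 ± 1.08 and 9.13 ± 0.650 FPKM, and mut-2, a nucleotidyltransferase that tails targeted RNAs, measured 6.501 ± 2.03 and 7.28 ± 0.155 FPKM. mut-15 and hrde-2 lie 28 bases apart on the same strand of chromosome V and had differences of -0.18 and 0.15.

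Of 5 nuclear RNA interference genes outside the Argonautes, 2 had a positive and 3 a negative difference. hrde-4 (chromosome I, 6945592 to 6950499, minus strand), named for a defect in heritable RNA interference, measured 17.6, 16.2 and 16.9 FPKM in N2 and 20.01, 20.5 and 29.5 FPKM in the mutant. The strains did not overlap, but mutant replicate 3 stood well above the other mutant libraries. The difference was 0.42 ± 0.17 (SE; unadjusted p = 0.0469, adjusted p = 0.355 in limma), and 0.25 without mutant replicate 3. nrde-2, which acts on nascent transcripts targeted by nuclear Argonautes, measured 29.8 ± 2.16 and 26.2 ± 4.03 FPKM and separated the strains only without the scaling between libraries. nrde-1 measured 17.3 ± 2.53 and 15.3 ± 3.30 FPKM, and nrde-4 measured 17.6 ± 1.91 and 17.2 ± 0.936 FPKM, both with overlapping libraries.

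Of the 4 genes for uptake and transport of double-stranded RNA, 3 had a negative difference. sid-3, a tyrosine kinase needed for efficient import, measured 23.95, 27.3 and 27.7 FPKM in N2 and 19.7, 17.4 and 24.98 FPKM in the mutant. Its difference was -0.34 ± 0.16 (SE; adjusted p = 0.412 in limma), with mutant replicate 3 inside the wild-type range but below it without the scaling between libraries. sid-1, the double-stranded RNA channel, measured 4.73 ± 0.225 and 4.20 ± 0.483 FPKM. sid-2, the gut receptor for ingested double-stranded RNA, measured 27.4 ± 2.05 and 29.3 ± 3.76 FPKM. sid-5 measured 55.8, 66.4 and 57.9 FPKM in N2 and 61.4, 70.5 and 44.6 FPKM in the mutant, where mutant replicate 3 was the lowest of all 6 libraries.

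Of the remaining ERI genes, named for enhanced RNA interference when mutated, eri-12 had the highest level of all members. It measured 156, 159.7 and 158.5 FPKM in N2 and 132.9, 118 and 147 FPKM in the mutant. The wild-type libraries were close to each other and all mutant libraries lay below them, a difference of -0.26 ± 0.13 (SE; adjusted p = 0.427 in limma). eri-6 and eri-7 lie on opposite strands, 501 bases apart on chromosome I, and are known to be joined by trans-splicing into a message for a single helicase. eri-7 measured 15.4, 14.4 and 13.05 FPKM in N2 and 13.7, 16.5 and 27.9 FPKM in the mutant, and eri-6 measured 4.70, 4.91 and 5.52 FPKM in N2 and 3.82, 6.03 and 11.6 FPKM in the mutant. Both were highest in mutant replicate 3, and eri-6 was lowest in mutant replicate 1. The exons of eri-6 share 1131 bases (22.6% of their length) with sosi-1 on the opposite strand, and the library kit does not mark strand, so reads there cannot be told apart.

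The mutant libraries also differed among themselves in these genes. Mutant replicate 3 was the highest of the mutant libraries in 34 of 48 members (70.8%), against 36.2% of all genes tested. Without the scaling between libraries this was 23 members (47.9%), against 23.3%. Mutant replicate 2 was the lowest of them in 25 members (52.1%, against 25.6%), or in 28 (58.3%, against 24.2%) without that scaling, and wild-type replicate 1 was the highest wild-type library in 28 members (58.3%, against 36.7%). Without mutant replicate 3, an unadjusted p under 0.05 in limma was found for 10 members (20.8%), 9 of them lower in the mutant (18.8%). The background was then 17.4% of all genes, and 8.69% lower in the mutant, and again none passed an adjusted p of 0.05. Leaving out another library gave 2 members (4.17%) for wild-type replicate 2 or 3, against 8.06% and 8.28% of all genes, and 3 members (6.25%) for mutant replicate 1 or 2, against 16.9% and 9.78%. With the replicate number as a block there were 4 members (8.33%), against 11.5% of all genes. The genes that joined when mutant replicate 3 was left out were alg-1, rde-12, eri-12, nrde-2, sago-1 and sid-3, and hrde-4 dropped out. The summed level of 3 body wall muscle markers was also highest in mutant replicate 3, at 3381 FPKM against 1234 and 1448 FPKM in mutant replicates 1 and 2 and 1723 to 2006 FPKM in N2. The summed level of 2 pharynx markers was highest there too, at 702 FPKM against 447 and 332 FPKM in mutant replicates 1 and 2 and 294 to 442 FPKM in N2. The sum of 3 intestine markers was likewise highest there (829 FPKM, against 547 to 756 FPKM in the others), though not without the scaling between libraries. Most of it was ifb-2 (784 FPKM), while elt-2 (17.6 FPKM) was the lowest of the mutant libraries. The sum of 4 neuron markers was the lowest of the 6 libraries (541 FPKM, against 599 to 695 FPKM), but most of it was snb-1 (413 FPKM). The neuron markers unc-13 (68.9 FPKM) and rgef-1 (19.7 FPKM) were instead the highest of the 6 libraries in mutant replicate 3, and unc-119 (39.8 FPKM) lay within the wild-type range. The sum of 3 epidermis markers, 100.1 FPKM, was the lowest of the mutant libraries but within the wild-type range. The part of these cell types in the values of that library was not tested.

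**Figure D4:**
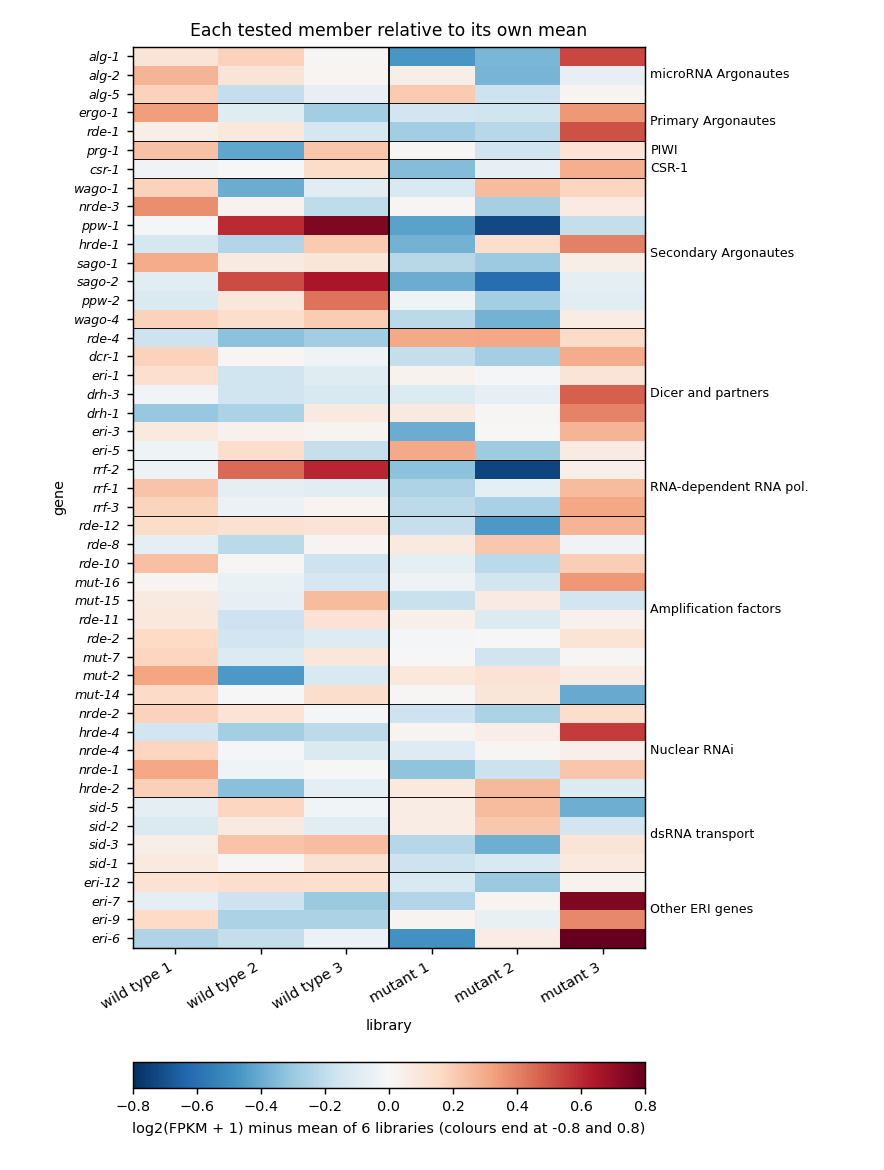
log2(FPKM + 1) of the 48 tested genes in each library minus the gene's mean over 6 libraries (red above, blue below, colours end at 0.8 either way), by role. Mutant replicate 3 is red in many rows where mutant replicates 1 and 2 are blue, and ppw-1, sago-2 and rrf-2 are red in wild-type replicates 2 and 3 and near white in wild-type replicate 1.

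Further genes of the small RNA pathways were compared from a list outside the symbols above, which covered germ granule proteins, piRNA biogenesis, microRNA processing, RNA decay and chromatin factors. Of 72 symbols listed, 64 were found in the table and 60 were tested, 34 with a positive and 26 with a negative difference (median 0.031). C04F12.1, described above, is the sequence name of vsra-1, which was listed but not found under that symbol. It was thus not counted among these, although its libraries were fully apart, lower in the mutant. Its unadjusted p of 0.00345 in limma was below that of every gene counted (lowest 0.0190, for haf-6). None of the 60 passed over all genes, and an unadjusted p under 0.05 in limma was found for 1 higher and 1 lower gene (3.33%, against 13.7% of all genes tested). The strains were fully apart in 3 genes (5.0%, against 20.0%). The ABC transporter gene haf-6, needed for efficient RNA interference, measured 5.35, 4.62 and 4.38 FPKM in N2 and 6.39, 6.94 and 7.68 FPKM in the mutant, with no overlap (adjusted p = 0.269). The exonuclease gene xrn-2, which degrades microRNAs released from Argonaute, measured 19.6, 18.4 and 15.8 FPKM in N2 and 14.7, 8.81 and 13.2 FPKM in the mutant (adjusted p = 0.334). These strains did not overlap either. Of the list's next genes, tofu-5, a factor of piRNA biogenesis, measured 24.8, 16.9 and 19.7 FPKM in N2 and 27.5, 29.4 and 24.1 FPKM in the mutant, with overlapping libraries, and the small RNA methyltransferase gene henn-1 measured 13.95 ± 1.48 and 10.7 ± 1.37 FPKM, N2 first, with no overlap of the strains in henn-1.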

How the data were processed

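The authors deposited 1 table of FPKM for 45519 genes with gene length, position and type, per the file headers. STAR 2.5.2b, Bowtie 0.12.2 and StringTie were used with the build WBcel235, per the submitters' processing notes, which give no roles. Strand setting, annotation release and treatment of multiply mapped reads are not stated there. Libraries were made with an Illumina TruSeq RNA kit, per the labels' protocols, a kit that does not mark strand. Groups and replicate numbers came from the sample titles. Whether replicates were separate cultures is not labelled, and the spread behind each p-value may thus be technical.

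Reads were recovered from FPKM times gene length, which stepped in whole reads (100% of 131954 nonzero values, to within 0.01 read). The 16794 genes averaging 1 FPKM or more were tested in R 4.3.3 on log2(FPKM + 1) by limma 3.58.1, with trend and robust moderation and the group as the only term. No count model was the main test, since the table holds FPKM. The fits were tested on simulated data. The alternatives were other pseudocounts, filters and scalings, voom with and without quality weights, a replicate block and leaving out each library. Which libraries were highest or lowest was also counted per recovered read total. Exonic overlaps came from the Ensembl release 115 annotation of WBcel235, where all 52 symbols matched. The members and lists were chosen with earlier results of these data known. Values in every library are given for the 10 members of lowest p, the 5 of highest level and, as chosen after their values were seen, some others. Of the pathway genes found by their listed symbol, which leave out C04F12.1 (vsra-1), the 4 of lowest p are named.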

Additional observations from a re-analysis of the deposited data

How the results depend on the processing

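The count of 0 members past an adjusted p of 0.05 was the same in 17 of 18 alternatives and at an adjusted p of 0.1. It was 1 (ppw-1) with quality weights in voom, where replicates 3 (0.417) and 1 (0.557) of the mutant counted least. The count of 5 members with an unadjusted p under 0.05 was 2 to 10 without 1 library, being 2 without wild-type replicate 2 or 3 (4.17%, against 8.06% and 8.28% of all genes), 3 without mutant replicate 1 or 2 (6.25%, against 16.9% and 9.78%), and 10 without mutant replicate 3 (20.8%, against 17.4%). ppw-1 and rde-4 were among them in every fit. The median difference ran from -0.14 to 0.029 without 1 library, being positive only without wild-type replicate 1. sid-5 ran from -0.19 to 0.13 without 1 library, turning positive without wild-type replicate 2 (0.024) and without mutant replicate 3 (0.13), and the cause was not tested. None of the 60 further pathway genes passed in any fit. Without the scaling between libraries, a count chosen after seeing the data, 11 in place of 6 members separated the strains, and mutant replicate 3 was the highest mutant library in 23 in place of 34. The difference of linc-133 means kept its sign without any 1 library. Same-numbered libraries did not deviate together over all genes tested (r = 0.0162, -0.0345 and 0.0288), so no pairing by number was seen. A pairing that touches only some genes could go unseen there. With a replicate block 0 members passed the adjusted p and 4 had an unadjusted p under 0.05 (8.33%, against 11.5% of all genes). Weakly expressed members limit what depth can show: alg-3, alg-4 and wago-5 rest on at most 8 reads in a library.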
